A study of Vitis vinifera with 12 samples.

Results

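The genes described here are those of the grape berry whose transcript level was higher by 50 days after full bloom than at 40 days and then stayed near its new level. They were chosen on age means of log2(FPKM + 1), where FPKM is fragments per kilobase of transcript and per 1000000 fragments and 1 is the pseudocount. The lowest of the 50-, 60- and 80-day means had to lie at least 1.5 above the 40-day mean, the 3 later means had to span less than 1.5, and the highest age mean had to be from 5 to under 1000 FPKM. Of the 22580 gene IDs in the table, 60 met these limits, 55 with a VIT_ ID of the grapevine reference annotation and 5 called newGene. All 60 passed the filter for the test across genes, which asked for 1 FPKM or more in at least 3 libraries and kept 14743 genes, called tested genes below. Because all 12 libraries took part in the choice, differences between 40 days and the later ages are given as a description, with no test.

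RNA was sequenced from fruit of Victoria, a white table grape cultivar of Vitis vinifera, 40, 50, 60 and 80 days after full bloom. Each age has 3 libraries, lettered a, b and c, which makes 12 in all. No treatment was applied, and the ages are the only groups. The labels give the tissue as fruit, without saying whether seeds were removed. Total RNA came from separately extracted replicates that were then pooled, per the labels' protocols, so the libraries of an age may share a pool and their spread may be technical.

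Grape berries grow in a first phase as hard, green and acidic fruit. At veraison, the onset of ripening, they soften, begin to import sugar, lose malic acid and, in coloured cultivars, make anthocyanins. Transcripts that appear at this transition and stay present are commonly sought as markers of the ripening state. The labels do not say at which age these berries passed veraison. The deposited table gives IDs without gene names, and the reference gene table used here holds none of them (0 matches), so no function is given for any gene, and the tissue could not be checked against marker genes. In whole fruit, more cells of a type and more RNA per cell cannot be told apart.

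Between 17710 and 18359 IDs per library had a value above 0. Relative to library a at 40 days, the estimated depth was 0.85 in library c at 40 days and 1.75 in library a at 50 days, the extremes of the 12, and absolute depth is unknown from FPKM. Differences between 2 ages had a median standard error of 0.25 in the 60 genes and of 0.15 over all tested genes (log2 scale).

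Most of the 60 genes were already transcribed in young berries, at a low level. The median of their mean levels was 4.16 FPKM at 40 days. At 50, 60 and 80 days it was 21.6, 23.8 and 29.97 FPKM. At 40 days 12 genes averaged below 1 FPKM, 30 from 1 to under 10 FPKM and 18 at least 10 FPKM, and none reached 100 FPKM. At 50 days none averaged below 1 FPKM, and 13 had at least 100 FPKM, as had 15 at 60 days and 15 at 80 days. No gene was at 0 in all 3 libraries of 40 days, and 1 was listed at 0 in 1 of them.

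**Figure D1:**
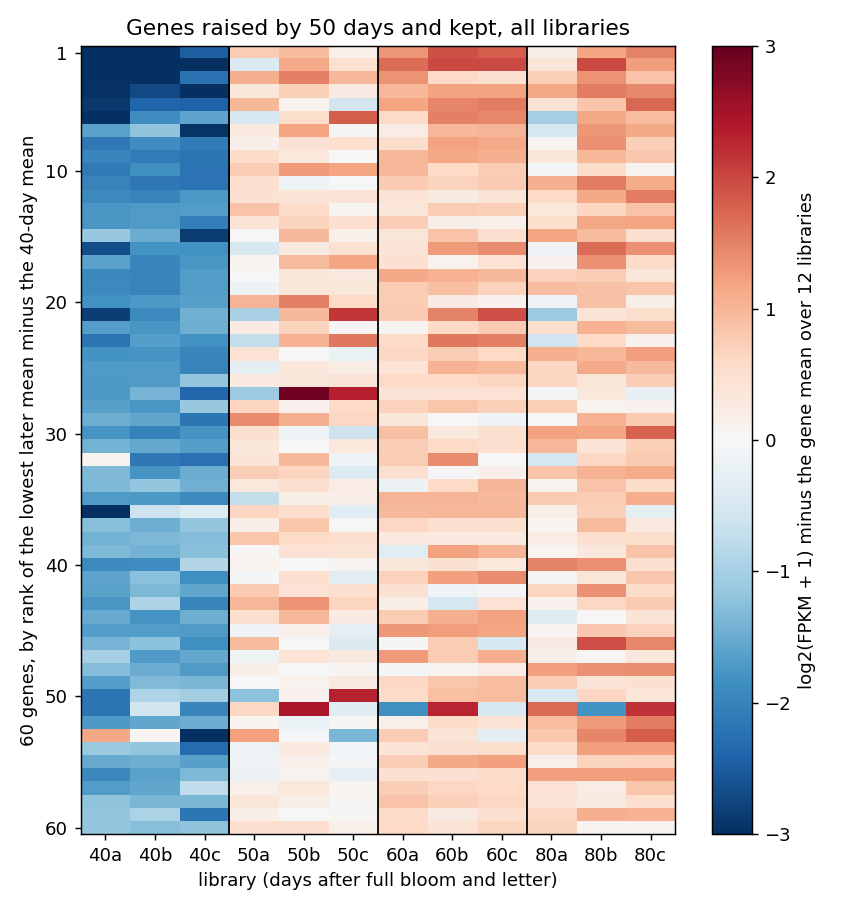
Level of each of the 60 genes (rows, by rank of the lowest later mean minus the 40-day mean) in each of the 12 libraries (columns, by age and letter), as log2(FPKM + 1) minus the gene's mean over the libraries. The 3 columns of 40 days are the low ones in nearly every row, and rows 32, 51 and 53 hold libraries that differ strongly within an age.

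The ratio of mean FPKM at 50 days over that at 40 days had a median of 5.11, and the ratio was 6.68 at 60 days and 6.41 at 80 days. At 50 days it ran from 1.13 to 94.0. The lowest was that of the gene listed at 0 in library c of 40 days, with means of 70.6 FPKM at 40 days and 80.0 FPKM at 50 days. On the log2(FPKM + 1) scale the median difference from 40 days was 1.95 at 50 days (quartiles 1.62 and 2.43), 2.25 at 60 days and 2.41 at 80 days. Over all tested genes the same medians were -0.07, -0.10 and -0.11. The lowest later mean exceeded the 40-day mean by at least 2 in 20 of the 60 genes and by at least 3 in 4, with a median of 1.76.

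The test across all genes was a moderated linear model (limma) with Benjamini-Hochberg adjustment, and a gene was called when its adjusted p was under 0.05 and its difference at least 1. From 40 to 50 days 57 of the 60 genes were called higher, against 3.44% of all tested genes. From 40 to 60 days it was 58, against 5.51%, and from 40 to 80 days 56, against 7.06%. These comparisons chose the genes, so nothing is read from the counts. All 3 libraries of 50 days were above all 3 of 40 days in 57 genes (22.8% of tested genes), and all 9 later libraries were above those of 40 days in 56 (11.9% of tested genes).

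**Figure D2:**
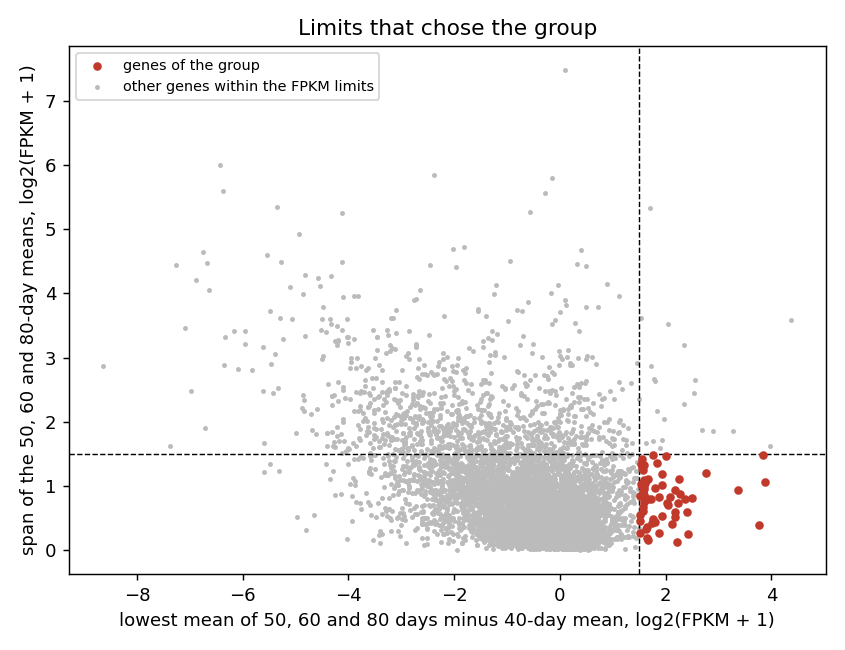
Each point is a gene whose highest age mean lay within the FPKM limits. The lowest later mean minus the 40-day mean (x axis) and the span of the 3 later means (y axis) are both on the log2(FPKM + 1) scale, dashed lines mark the limits of 1.5, and the 60 chosen genes (red) crowd against the line for the rise.

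The group has no gap at its edge. The smallest rises inside the limit were 1.50 and 1.51, and the largest outside it were 1.499 and 1.497. Within 0.1 of that limit lay 19 genes of the group and 11 genes outside. The largest span inside was 1.49 and the smallest outside was 1.58. A further 8 genes met the limits of rise and span at 1000 FPKM or more, the lowest of them at 1034 FPKM, and 1 gene met them below 5 FPKM, at 4.32 FPKM. Inside the limits, the highest age mean ran between 5.78 and 504 FPKM, with a median of 33.2 FPKM.

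By the lowest later mean minus the 40-day mean, the largest rise was that of VIT_14s0066g01140. Its 3 libraries (a, b and c) held 0.175, 0.365 and 1.83 FPKM at 40 days, 25.6, 29.3 and 16.5 FPKM at 50 days, 38.4, 58.3 and 54.7 FPKM at 60 days, and 16.9, 35.1 and 42.9 FPKM at 80 days. Every later library was above every 40-day library. The libraries of 60 days were all above those of 50 days, and those of 80 days overlapped both. The difference from 40 days was 3.87 ± 0.38 (SE) at 50 days, 4.94 at 60 days and 4.20 at 80 days on the log2(FPKM + 1) scale.

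The next by that measure was Grape_newGene_3023, one of the 5 genes outside the reference annotation. Its difference from 40 days was 3.85 at 50 days, 5.33 at 60 days and 4.65 at 80 days on the log2(FPKM + 1) scale, the last 2 above those of VIT_14s0066g01140. It was close to 0 at 40 days, at 9.28e-07, 0.157 and 0.403 FPKM. At 50 days it held 8.62, 27.2 and 16.8 FPKM, at 60 days 40.0, 49.9 and 49.8 FPKM, and at 80 days 15.7, 49.8 and 29.6 FPKM. Libraries at 60 days were close together and all above those of 50 days, while those of 80 days spread across both. Its span of 1.49 lay just inside the limit, and it left the group when any one of library b or c of 50 days or library a of 60 days was left out.

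Among the 60 genes, the 2 largest differences downward from 50 to 80 days were those of VIT_00s0873g00010 and VIT_13s0047g00200. VIT_00s0873g00010 held 0.953, 1.48 and 0.267 FPKM at 40 days, 2.03, 48.0 and 31.6 FPKM at 50 days, 7.62, 7.79 and 7.74 FPKM at 60 days, and 5.28, 7.11 and 4.59 FPKM at 80 days. Library a of 50 days was only a little above the 40-day libraries, while b and c were far above them. The difference between 80 and 50 days was -1.36 ± 0.78 (SE) on the log2(FPKM + 1) scale and that between 50 and 40 days was 3.21 ± 0.78. Without library a of 50 days, or without library b of 80 days, the gene left the group.

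VIT_13s0047g00200 was the steadier case. It held 2.31, 3.03 and 2.13 FPKM at 40 days, 23.3, 34.2 and 32.1 FPKM at 50 days, 27.6, 21.0 and 23.4 FPKM at 60 days, and 12.9, 20.3 and 14.7 FPKM at 80 days. All libraries of 80 days were below all of 50 days and still above all of 40 days. The difference between 80 and 50 days was -0.87 ± 0.19 (SE) on the log2(FPKM + 1) scale.

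**Figure D3:**
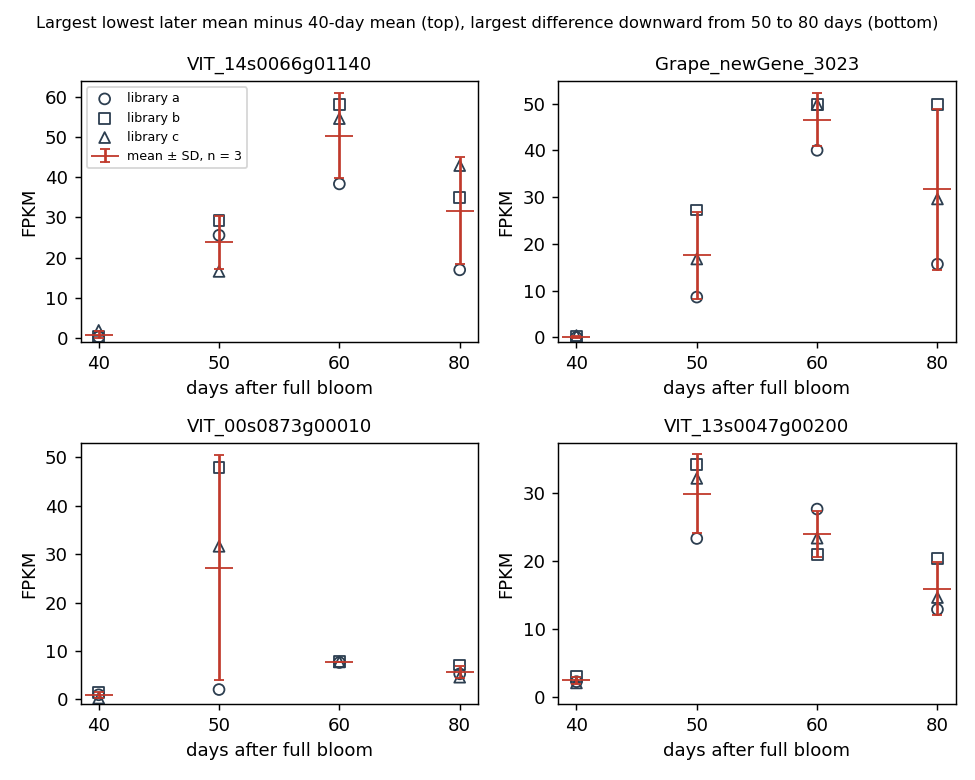
FPKM (y axes, linear) at 40, 50, 60 and 80 days after full bloom (x axes) for the 2 genes with the largest value of lowest later mean minus 40-day mean on the log2(FPKM + 1) scale (top) and the 2 with the largest difference downward from 50 to 80 days (bottom). Open symbols are libraries a, b and c, and red bars give the mean ± SD (n = 3). In all 4 genes every later library lies above the 40-day ones, and in VIT_00s0873g00010 the 50-day libraries run from 2.03 to 48.0 FPKM.

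By 50 days the genes had covered a median of 78.3% of the log2 distance between the 40-day mean and their highest later mean (quartiles 66.6% and 87.7%). The rule itself keeps this share high, since it asks for a rise of at least 1.5 by 50 days and a later span under 1.5. The highest age mean came at 50 days in 9 genes, at 60 days in 29 and at 80 days in 22. Means increased at both later steps in 16 genes and decreased at both in 3. In 29 genes an increase to 60 days was followed by a decrease to 80 days, and in 12 the order was the reverse. Only the sign of each step was used here, with no test.

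Between 50 and 60 days the mean was higher at the later age in most of the group, a direction that the rule favours. The median difference was 0.39 on the log2(FPKM + 1) scale, with 45 genes higher and 15 lower at 60 days, against a median of -0.02 over all tested genes. The limit on the span bounds each of these differences to less than 1.5. The limit on the rise leaves out genes that fell back to less than 1.5 above the 40-day mean. The differences and the counts of calls are thus again only a description. Within the FPKM limits, 182 genes were raised by at least 1.5 at 50 days. Their median age mean on the log2(FPKM + 1) scale was 4.59 at 50 days and 4.60 at 60 days. The limma test called 6 genes higher at 60 than at 50 days (2.01% of tested genes) and 0 lower (2.31%). At an unadjusted limma p under 0.05 these numbers were 21 and 4, a cutoff at which the share of tested genes was not counted. When libraries were brought to 1 common sum of 1000000, 3 were called higher and 2 lower, with sample weights 7 and 2, and with no minimum difference 17 and 2. Here and below, shares of tested genes beside limma calls belong to the fit described above with all 12 libraries, not to these settings. Shares for other settings and for fits without single libraries are not given, so those counts cannot be set against them. All 3 libraries of 60 days were above those of 50 days in 28 genes (19.1% of tested genes) and below them in 3 (21.6%). In the fit without library a of 50 days, 2 genes were called higher and 1 lower. Without library b or c of 60 days, 3 and 2 were called higher.

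From 60 to 80 days the group was level on balance. The median difference was -0.04, with 28 genes higher and 32 lower at 80 days, and it was -0.01 over all tested genes. The limma test called 1 gene higher (2.68% of tested genes) and 0 lower (6.8%). At an unadjusted limma p under 0.05 it was 12 and 9, again with no share of tested genes counted. The limits on rise and span bound these differences too, so the counts are only a description. With the common sum of 1000000, the median difference was -0.18 in the 60 genes and -0.13 over tested genes, with 23 of the 60 higher and 37 lower. Without library a of 80 days the median was 0.11, with 33 genes higher and 27 lower, and 3 genes were called, all higher. Without library a of 50 days 1 was called higher and 2 lower, and without library a of 60 days or library c of 80 days 2 were called higher and 1 lower.

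Set against 50 days, 80-day levels were higher in 42 genes and lower in 18, with a median difference of 0.35, against -0.05 over all tested genes. With the common sum of 1000000 the median was 0.12 in the 60 genes and -0.24 over tested genes, with 34 of the 60 higher and 26 lower, and 4 were called higher and 1 lower. The limma test called 7 genes higher (3.66% of tested genes) and 0 lower (8.15%). At an unadjusted limma p under 0.05 it was 22 and 4, with no share of tested genes counted at that cutoff. The rule keeps every 80-day mean at least 1.5 above the 40-day mean, so only genes with a large rise by 50 days could be called lower. Nothing is read from these counts or from the direction of the differences. Without library a of 80 days 12 genes were called, all higher, and without library a of 50 days 13 were called, 9 higher and 4 lower. The largest difference upward within the limit was 1.49, in a gene with 1.38, 0.977 and 1.36 FPKM at 40 days, 10.2, 6.25 and 4.26 FPKM at 50 days, 14.1, 8.80 and 10.3 FPKM at 60 days, and 17.6, 17.3 and 26.6 FPKM at 80 days. Its libraries of 80 days were all above those of the other 3 ages. The flattest gene spanned 0.12 over the later means, with 23.1, 18.7 and 12.9 FPKM at 50 days, 16.1, 21.8 and 20.9 FPKM at 60 days, and 15.6, 19.8 and 23.3 FPKM at 80 days, against 2.95, 3.09 and 3.17 FPKM at 40 days.

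Grouped by their level at 40 days, the genes had the following medians, whose course is fixed in outline by the rule. The 18 that averaged at least 10 FPKM at 40 days had median levels of 38.7, 180, 211 and 201 FPKM at 40, 50, 60 and 80 days. The 30 that began at 1 to 10 FPKM had 3.48, 15.4, 18.9 and 19.6 FPKM. The 12 that began below 1 FPKM had 0.52, 6.53, 8.71 and 7.40 FPKM. The highest mean came at 80 days in 9 of the 18, in 10 of the 30 and in 3 of the 12. On the log2(FPKM + 1) scale the median of the lowest rise was 2.01, 1.66 and 1.73 in these 3 classes, a scale on which the pseudocount understates the change of low genes.

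The most abundant gene of the group at 50 days held 20.4, 20.9 and 44.9 FPKM at 40 days, 458, 622 and 431 FPKM at 50 days, 550, 328 and 299 FPKM at 60 days, and 355, 555 and 396 FPKM at 80 days. Its later libraries overlapped between ages, and all of them were far above those of 40 days. Its difference between 50 and 40 days, 4.16 on the log2(FPKM + 1) scale, was the largest of the 60 genes. Together the 60 genes held 0.0754% ± 0.0084 (SD, n = 3) of the summed FPKM at 40 days. At 50, 60 and 80 days they held 0.386% ± 0.062, 0.422% ± 0.026 and 0.392% ± 0.074. Without that gene the shares were 0.0729%, 0.343%, 0.390% and 0.3599%. At 80 days library a held 0.308%, and libraries b and c held 0.444% and 0.424%.

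The rule took age means only and set no limit on single libraries. Each mean is made of its 3 libraries, so the places of libraries within an age are not free of the choice. Library a of 80 days stood lowest. Its deviation from the age mean had a median of -0.30 over the 60 genes (log2 scale), against 0.16 and 0.12 in libraries b and c of that age. It lay above the age mean in 11 of the 60 genes, and over all tested genes it did so in 54.2%, with a median deviation of 0.02. It held the lowest of the 3 values in 41 of the 60 genes, against 35.4% of tested genes. At 50 days library b was the high one, with a median deviation of 0.16 and a position above the age mean in 41 of the 60 genes (55.4% of tested genes). At 40 and 60 days the library medians stayed between -0.03 and 0.05. The 264 genes that were lower from 50 days on, defined below, deviated the other way in library a of 80 days, by a median of 0.17. The estimated depth of that library relative to library a at 40 days was 0.966, against 0.993 and 1.16 in libraries b and c of 80 days, and the part of depth in these deviations was not tested.

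**Figure D4:**
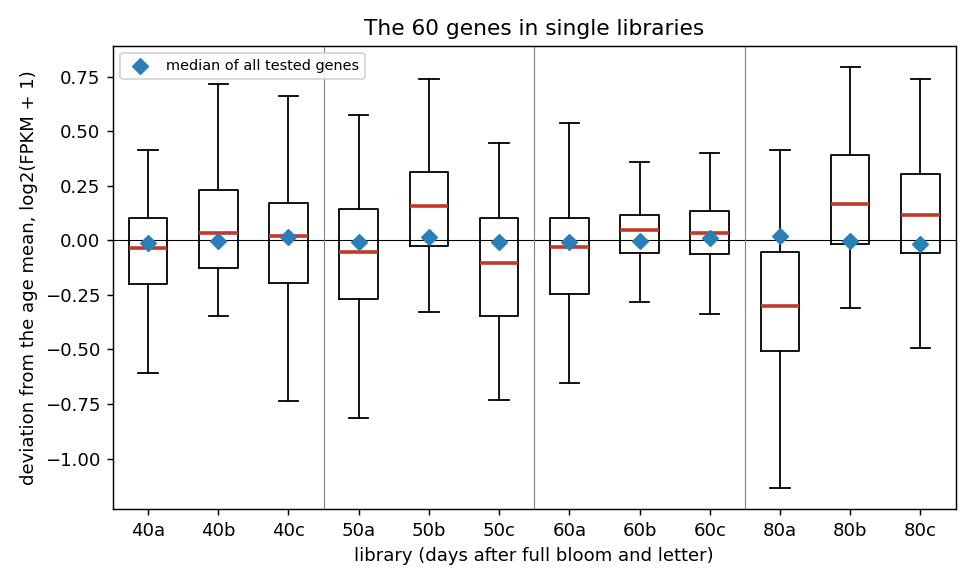
Deviation of the 60 genes from their age mean in each library (x axis, age and letter), on the log2(FPKM + 1) scale (y axis). Boxes span the quartiles with the median in red, whiskers reach the last gene within 1.5 box lengths, and blue diamonds give the median of all tested genes. Library a of 80 days has a median of -0.30, and the diamonds stay near 0 in all libraries.

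The libraries of an age lay further apart in these genes than in the median tested gene. The SD between libraries within ages had a median of 0.35 on the log2 scale over the 60 genes. It was 0.18 over all tested genes and 0.16 over the 11502 tested genes whose mean level lay within the range of the group. At the 4 ages in turn the median SD was 0.21, 0.32, 0.20 and 0.35 in the 60 genes, against 0.14, 0.15, 0.13 and 0.17 over tested genes. The highest and the lowest library of 80 days were at least 1 apart on the log2 scale in 19 of the 60 genes (7.64% of tested genes), and those of 50 days in 15 (5.09%). In 12 genes this held at both ages (2.05% of tested genes), and in 6 of these library a was the lowest at both (0.332% of tested genes). No test was made of these differences, since genes are not replicates. The part that the choice on age means has in the wider spread was not tested.

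A subset had library a lowest at 50, 60 and 80 days alike. It numbered 11 of the 60 genes (18.3%), against 7.18% of tested genes, while library b or library c was lowest at all 3 ages in 0 of the 60 (2.98% and 6.08% of tested genes). One of these 11 held 78.3, 303 and 687 FPKM at 50 days, 265, 435 and 598 FPKM at 60 days, and 72.7, 202 and 222 FPKM at 80 days, against 21.1, 40.6 and 56.0 FPKM at 40 days. In another the values were 82.1, 168 and 413 FPKM at 50 days, 174, 332 and 315 FPKM at 60 days, and 56.8, 258 and 222 FPKM at 80 days, against 13.5, 31.1 and 38.2 FPKM at 40 days. In both genes library a was also the lowest of 40 days. Over all tested genes, deviations correlated above 0.1 in 4 of 18 pairs of same-lettered libraries from different ages. All 4 joined 50 days to 60 or 80 days. They were 0.13 for letter a and 0.19 for letter c with 60 days, and 0.11 for letter a and 0.12 for letter b with 80 days. Pairs of different letters ran from -0.17 to 0.19 over all ages, and from -0.15 to 0.017 between 50 days and 60 or 80 days.

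In 4 of the 60 genes at least 1 later library was no higher than the highest 40-day library. One held 144, 67.4 and 0 FPKM at 40 days, 153, 62.6 and 24.3 FPKM at 50 days, 109, 85.0 and 52.8 FPKM at 60 days, and 114, 180 and 231 FPKM at 80 days. It is listed at 0 in library c of 40 days, and without that library it left the group, as it did without library a of 50 days or library a of 80 days. Another swung within every age, with 6.67, 25.9 and 2.84 FPKM at 50 days, 0.393, 23.1 and 2.54 FPKM at 60 days, and 15.1, 0.428 and 21.4 FPKM at 80 days, against 0.0947, 2.37 and 0.253 FPKM at 40 days. It left the group in 5 of the 12 ways of leaving out 1 library, more often than any other of the 60 genes.

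With each library left out in turn, between 53 and 64 genes met the limits, and between 49 and 59 of them were among the 60. Of the 60 genes, 29 were chosen in all 12 cases. The limits, set with these data known, were also applied with all 4 libraries of 1 letter left out. The lists so chosen are not the group itself. Among the 60 were 44 of 58 genes chosen without letter a, 44 of 54 without b and 47 of 67 without c. Chosen on letters b and c, 58 genes met the limits, and in the libraries of letter a the median of their lowest later value minus the 40-day value was 1.49, against 1.81 in the libraries that chose them. For letter b left out it was 1.78 against 1.84 in 54 genes, and for letter c 1.51 against 1.88 in 67 genes. The 3 later libraries of the omitted letter were all above its 40-day library in 53 of the 58, 51 of the 54 and 63 of the 67 genes, against 25.5%, 26.6% and 28.5% of tested genes. Fewer reached the rule's rise of 1.5 there, 28 of the 58, 36 of the 54 and 35 of the 67, against 0.705%, 0.780% and 0.868% of tested genes. The span there was under 1.5 in 51, 45 and 53 of these genes. Each omitted letter has 1 library per age, so these are values with no test, and if the libraries of an age share a pool they are not independent of it.

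Genes that came up by 50 days did not all keep their level. Within the FPKM limits 182 genes had a 50-day mean at least 1.5 above the 40-day mean, and the 60 genes are 33.0% of them. In 42 others the 60- or 80-day mean was lower than the 50-day mean by 1.5 or more, and in 20 others a later mean was higher by 1.5 or more. A further 60 stayed between these bounds without meeting the limits of the group. Another 320 genes reached a difference of 1.5 by 80 days without having it at 50 days. In the opposite direction, 264 genes had a 40-day mean at least 1.5 above every later mean, with later means spanning under 1.5, which is the mirror of the rule.

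These classes began at different levels. The median mean level at 40 days was 4.16 FPKM in the 60 genes, 2.58 FPKM in the 42 that came down again, 1.79 FPKM in the 20 that went further up and 5.36 FPKM in the 320 late ones. The median of the highest age mean was 33.2 FPKM in the 60 genes, 24.0 FPKM in the 42, 77.4 FPKM in the 20 and 28.8 FPKM in the 320. Without library c of 50 days, 71 genes in place of 42 came down by 1.5 or more after 50 days. The classes were cut from the same means, so the differences between them are a description.

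**Figure D5:**
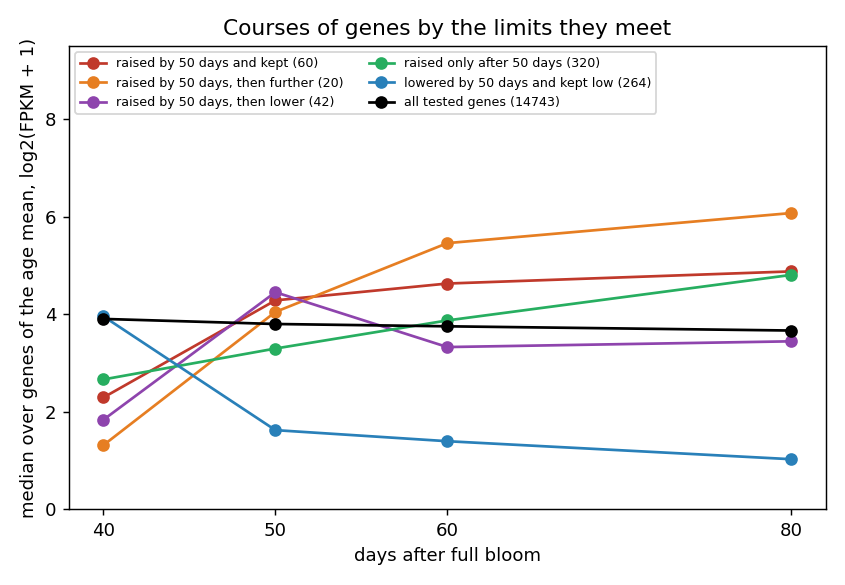
Median over genes of the age mean on the log2(FPKM + 1) scale (y axis) at 40, 50, 60 and 80 days after full bloom (x axis) for classes cut by the same limits, with the number of genes in the legend. The 60 genes go to a median of 4.28 at 50 days and 4.88 at 80 days, against 2.29 at 40 days, while the median of all tested genes stays between 3.66 and 3.90.

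IDs of the newGene kind were 5 of the 60 (8.33%), against 2.22% of tested genes, and they were 3 of the 42 genes that came down again and 0 of the 20 that went further up. In VIT_ IDs the first number gives the chromosome of the reference, with 00 for sequence not placed on one. The 55 VIT_ genes of the group were spread over 17 of the 19 chromosomes, with the most (7) on chromosome 1, none on chromosomes 9 and 16, and 5 without a place. The share of tested VIT_ genes that belonged to the group was 0.948% for chromosome 10 (4 genes), 0.812% for chromosome 1, 0.759% for chromosome 11 (5 genes) and 0.382% over all of them.

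A single pair of the group stood at neighbouring IDs, on chromosome 12, so that 2 of the 55 (3.64%) had another of the 60 genes at the next or previous ID of their scaffold, against 0.527% of tested VIT_ genes. The pair held very different levels. One held 13.003, 25.04 and 10.7 FPKM at 50 days, 12.5, 21.9 and 22.4 FPKM at 60 days, and 7.25, 27.8 and 24.1 FPKM at 80 days, against 2.78, 3.99 and 0.490 FPKM at 40 days. The other held 121, 239 and 136 FPKM at 50 days, 157, 223 and 175 FPKM at 60 days, and 278, 238 and 173 FPKM at 80 days, against 55.5, 43.2 and 16.2 FPKM at 40 days. Library c was the lowest of 40 days and library b the highest of 50 days in both genes. Whether the pair shares reads through similar sequence was not tested.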

How the data were processed

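The authors deposited 1 table of FPKM values for 22580 gene IDs in 12 libraries. Per the submitters' processing notes, the tools were TopHat2, Cufflinks, edgeR, FastQC and Trimmomatic 0.36, with no role or settings named. Genome build and annotation are not given in the sources at hand. The 12 columns were matched to samples by their descriptions, with 0 left over. The 60 genes and every list and limit were chosen with earlier results of these data known. None of the IDs matched the reference table (0 matches), so the lists planned by product name could not be filled.

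Values were transformed to log2(FPKM + 1). The 14743 tested genes were fitted with limma 3.58.1, with a mean for each age, in R 4.3.3 (intensity trend, 8 residual degrees of freedom), and the fit was tested on simulated data. No count model was used on FPKM, and exact zeros can be failed estimates. Relative depth is the most frequent ratio of low values in library a at 40 days to those of the same genes in the library. Genes printed by ID are the 2 with the largest lowest rise and the 2 with the largest difference downward from 50 to 80 days. Others appear without an ID, and those given with their values were chosen after these were seen. Alternatives were pseudocounts of 0.1 and 5, 2 scalings, other limits, other filters, no trend, sample weights, the letters as a replicate block, and each library left out. Python 3.11.15, numpy 2.4.6 and pandas 2.3.3 were used.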

Additional observations from a re-analysis of the deposited data

How the results depend on the processing

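The direction from 40 days to each later age held in all 60 genes under median-of-ratios scaling and under scaling to a sum of 1000000, which moved the median tested gene from 40 to 80 days to -0.35. The size of the group depends on its limits. It was 92 genes with a pseudocount of 0.1 (57 of the 60 among them), 20 with a pseudocount of 5, 37 with scaling to a sum of 1000000 (34 of the 60), 183 with a rise of at least 1 and 20 with a rise of at least 2. A larger pseudocount shrinks low genes by construction. Median-of-ratios scaling gave 65 genes. With pseudocounts of 0.1 and 5, genes raised by 50 days numbered 284 and 80, those that then came down 71 and 20, and those that went further up 61 and 6. With a pseudocount of 5, 191 genes were raised only after 50 days and 142 were lowered and kept low. With the sum of 1000000, 206 were raised only after 50 days. Without single libraries the class that came down held 39 to 71 genes.

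Calls from 40 days to the later ages stayed within 1.5 times in every alternative run. From 50 to 60 days 2 genes were called with a pseudocount of 5, 19 with no minimum difference and 2 to 7 without single libraries. From 60 to 80 days 2 were called with a pseudocount of 0.1 and with the sum of 1000000, 4 with sample weights, 17 with no minimum difference and 1 to 3 without single libraries. From 50 to 80 days 19 were called with no minimum difference and 6 to 13 without single libraries. Leaving out library c of 40 days and library a of 80 days together, chosen after seeing the data, gave 3 calls from 60 to 80 days and 12 from 50 to 80 days. With the letters as a replicate block 3 genes were called from 60 to 80 days, and the block moved no other count of calls by over 1.5 times. Correlations of deviations ran from -0.16 to 0.19 between same-lettered libraries and from -0.17 to 0.19 between different letters, so the letters are not taken as pairs. Scaling to a sum of 1000000 turned the median deviation of the group to -0.0633 in library c of 40 days and -0.0126 in library b of 60 days. These libraries had the largest summed FPKM of their ages, at 1216183 and 1282133, and this scaling divides by that sum. The cause of the unequal sums was not tested. Without counts, depth sets no interval here, and 3 libraries per age limit the precision.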
